A study of Mus musculus with 8 samples.

Results

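The genes described here are 10 genes of the alveolar type I cell: Ager, Aqp5, Pdpn, Hopx, Col4a3, Col4a4, Spock2, Clic5, Rtkn2 and Cav1. They were chosen by symbol, as genes known to mark this cell and with earlier results of these data known. Every probe that the platform annotation gives to one of these symbols was taken. This made 13 probes of 25697 on the array and 10 genes of 16593 with a named probe. RNA of whole lungs of C57BL/6 mice at embryonic day 18.5 was hybridized to an Illumina bead array, MouseRef-8 v2, in 4 groups of 2 arrays each. The groups were wild-type (Snx5+/+) and Snx5-/- lungs labelled non-air, and wild-type and Snx5-/- lungs labelled air, the latter from pups delivered by caesarean section and left to breathe room air. The Snx5-/- mice come from 1 gene-trap embryonic stem cell line, with the trap in an intron of Snx5, crossed back to C57BL/6, so that every cell of the lung carried the allele. The study's methods call the replicates biological. Whether an array held 1 lung or a pool is not stated there, and the p-values measure the spread between these arrays.

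Type I cells are the thin, flat cells that cover most of the inner surface of the alveolus and carry gas between air and capillary blood. They lie on a basement membrane that they share with the capillary endothelium, and in late gestation they arise from progenitors in the distal lung, beside the cuboidal type II cells that make surfactant. The genes code for surface proteins of the cell (Ager, the receptor for advanced glycation end products or Rage, and Pdpn, podoplanin or T1α), a water channel (Aqp5), basement membrane and matrix proteins (Col4a3, Col4a4, Spock2), proteins of the cell cortex and caveolae (Clic5, Cav1) and a homeodomain-only cofactor (Hopx).

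The stretches in front of the start sites are shown for genes that fell in Snx5-/- lungs (Aqp5, Pdpn and Spock2) and for Cav1, which is active in the same cells and did not pass the test in any comparison. The RefSeq promoter table of GRCm38.p6 held 10 windows for 8 of the 10 genes. The 250 bases before each start were searched on both strands for 5 motifs of factors that act in the lung or on many promoters, and the matches are in capitals. The bases are written 5′ to 3′ on the gene's strand.
Aqp5, chr15:99590778-99591027, plus strand: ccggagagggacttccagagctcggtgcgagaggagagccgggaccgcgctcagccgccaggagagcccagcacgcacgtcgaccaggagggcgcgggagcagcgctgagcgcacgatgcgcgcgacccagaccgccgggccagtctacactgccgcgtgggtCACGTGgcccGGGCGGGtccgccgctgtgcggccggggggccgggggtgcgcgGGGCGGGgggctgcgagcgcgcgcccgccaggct
Pdpn, chr4:143299565-143299814, minus strand: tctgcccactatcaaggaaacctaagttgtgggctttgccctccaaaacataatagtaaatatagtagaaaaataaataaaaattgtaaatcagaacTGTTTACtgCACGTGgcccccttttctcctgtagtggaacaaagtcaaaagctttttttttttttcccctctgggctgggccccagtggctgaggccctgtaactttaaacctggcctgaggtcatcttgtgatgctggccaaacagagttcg
Spock2, chr10:60106007-60106256, plus strand: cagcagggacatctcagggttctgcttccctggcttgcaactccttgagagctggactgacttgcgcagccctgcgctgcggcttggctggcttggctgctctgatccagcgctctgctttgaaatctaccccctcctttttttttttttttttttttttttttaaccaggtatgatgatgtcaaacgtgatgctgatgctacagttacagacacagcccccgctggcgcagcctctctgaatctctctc
Cav1, chr6:17306085-17306334, plus strand: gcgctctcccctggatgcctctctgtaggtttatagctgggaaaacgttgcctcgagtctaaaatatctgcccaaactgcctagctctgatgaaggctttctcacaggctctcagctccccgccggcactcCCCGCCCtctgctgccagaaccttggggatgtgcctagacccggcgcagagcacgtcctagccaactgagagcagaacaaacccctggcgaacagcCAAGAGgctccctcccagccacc
The Aqp5 stretch held 2 matches to the SP/KLF motif GGGCGGG and 1 to the E-box CACGTG, and it overlaps the annotated extent of Gm34765. The Pdpn stretch held the FOXA motif TGTTTAC and an E-box. The Spock2 stretch held no match. The Cav1 stretch held an SP/KLF match and the NKX2-1 motif CAAGNG, in which N is any base. Of all 32851 windows, 23.4% held the SP/KLF motif, 6.02% the E-box, 3.17% the FOXA motif, 40.6% the NKX2-1 motif and 12.6% the TEAD motif GGAATG. Among the 10 windows of the genes, 3 held the SP/KLF motif, 3 the E-box, 1 the FOXA motif, 2 the NKX2-1 motif and 0 the TEAD motif. No motif was common to the genes that fell. These matches describe the letters only.

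The cell type was visible in the arrays. Of the 10 genes, 8 with 11 probes were above background (detection p-value under 0.01) on all 8 arrays. Hopx and Rtkn2 were above background on 0 arrays. Their probes reached log2 intensities of 7.30 and 7.75 at most, so no level and no fold change is given for either, and they were not tested. The arrays detected between 12209 and 12685 probes. The targeted gene was dim. Its brighter probe read 7.88 and 7.85 in wild-type non-air lungs, 7.23 and 7.24 in Snx5-/- non-air lungs, 7.84 and 8.42 in wild-type air lungs and 7.29 and 7.10 in Snx5-/- air lungs, and it was above background on 1 array only. All 4 Snx5-/- values of this probe were below all 4 wild-type values, a split that held for 4.77% of all genes tested. The other Snx5 probe was above background on 0 arrays. It read 7.36 to 7.53 in Snx5-/- lungs and 7.51 to 7.55 in wild-type lungs, so the genotypes overlapped. With values at background no fold change is given for either probe.

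Points of the labels bear on the values below. The deposited non-normalized intensities carry the air and non-air labels the other way round from the log2 values used here, for every array, so that under those labels each non-air result is an air result and the reverse. The detection p-values deposited beside those intensities follow the labels of the log2 values: over all probes their rank correlation with the log2 values was -0.967 to -0.951 under the same label and -0.939 to -0.916 under the other air state. Which table carries the right air labels cannot be told from these values. The genotype comparison averaged over both air states does not depend on this. Both Snx5-/- air arrays also stood apart in sex-linked genes. Xist read 7.83 and 7.77 there and 11.82 to 12.58 on the other 6 arrays, and the Y-linked Eif2s3y read 11.81 and 11.73 there and 7.13 to 7.40 elsewhere. In the air comparison genotype and this difference cannot be told apart. In the air effect in Snx5-/- lungs, air state and this difference cannot be told apart. The same arrays enter the averaged genotype comparison and the interaction, which carry this limit in part. None of the 10 genes lies on a sex chromosome, but whether they differ with sex was not tested. In whole lungs, fewer cells of a type and less RNA per cell cannot be told apart.

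In Snx5-/- lungs most of the type I cell genes were lower than in wild-type lungs. Averaged over both air states, 5 of the 8 tested genes fell: Col4a4, Aqp5, Ager, Pdpn and Spock2. The linear intensity of Spock2 fell by 26.4%, and that of Col4a4 fell by 32.1%, the ends of the range over the 5 genes. A gene was called where limma's Benjamini-Hochberg adjusted p was under 0.05 and the log2 fold change was larger in size than the fold cutoff of the study's methods, and the background for a fall was 1.53% of the 9635 genes tested. Clic5, Col4a3 and Cav1 were not called. The median log2 fold change of the 8 genes was -0.45, against 0.01 over all genes tested. In non-air lungs 2 of the 8 fell, Aqp5 and Col4a4, against a background of 0.373%, and in air lungs 3 of the 8 fell, Ager, Pdpn and Col4a4, against 1.32%. The sign was negative for 8 of 8 genes in each of these comparisons. The counts within 1 air state rested on single arrays. In non-air lungs 0 genes were called without the wild-type array labelled replicate 2 or without either Snx5-/- array, and 6 without the wild-type array labelled replicate 1. In air lungs 0 were called without any 1 of the 4 air arrays. The averaged count lay between 4 and 7 when single arrays were left out.

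**Figure D1:**
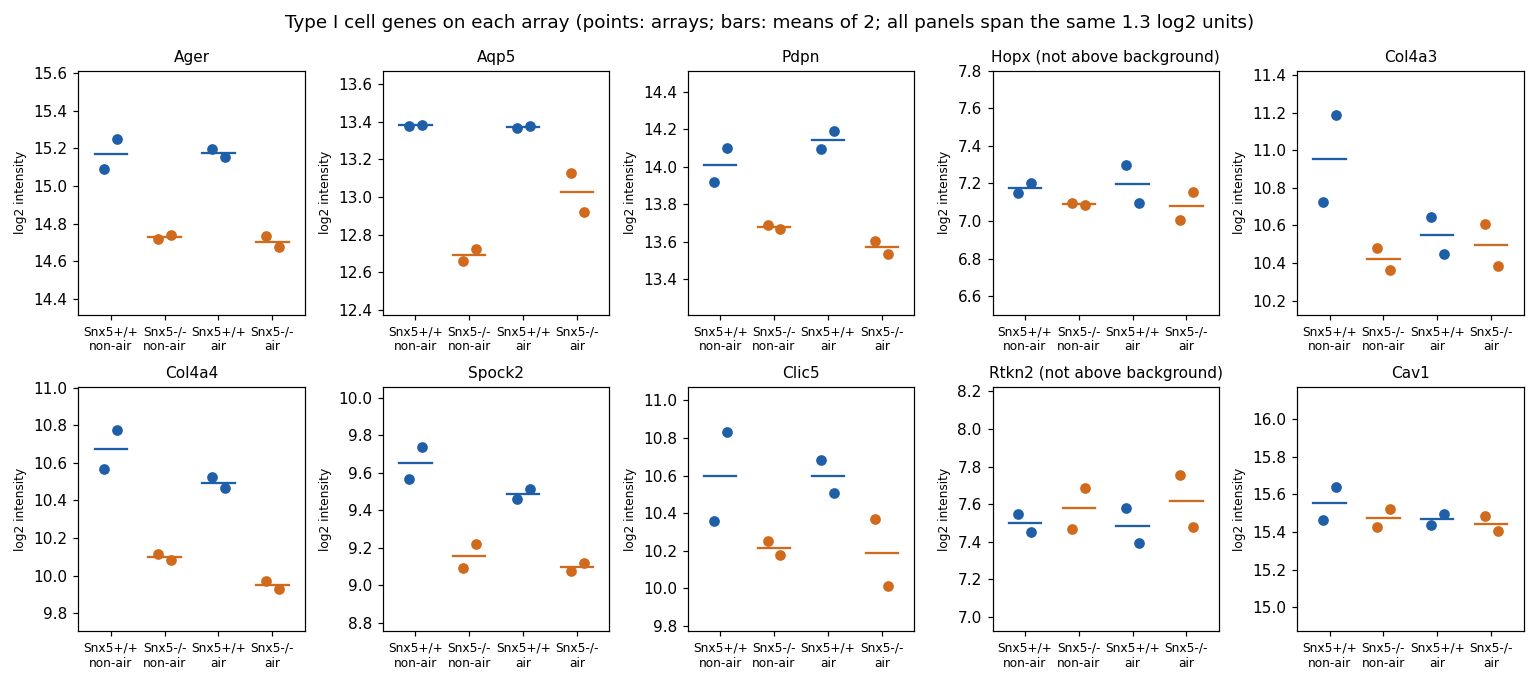
Log2 intensity of each gene on each array by group, with points for arrays, bars for the means of 2 arrays and the same span of log2 units in every panel (blue Snx5+/+, orange Snx5-/-). For Ager, Aqp5, Pdpn, Col4a4 and Spock2 all 4 Snx5-/- arrays lie below all 4 wild-type arrays. Clic5, Col4a3 and Cav1 overlap, and Hopx and Rtkn2 are not above background.

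The split between genotypes was complete for 5 of the 8 genes, with the highest Snx5-/- array below the lowest wild-type array over all 8 arrays. Over all genes tested this held for 4.77%. The genes were Ager, Aqp5, Pdpn, Col4a4 and Spock2, which are those called in the averaged comparison, so the count adds no separate evidence. With 4 arrays of each genotype permuted within each air state, the smallest exact 2-sided p is 0.0556, so no single-gene permutation test could pass 0.05.

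Ager codes for Rage, a multiligand receptor of the immunoglobulin superfamily that is enriched on the basal side of type I cells. Its brighter probe, on chromosome 17, read 15.09 and 15.25 in wild-type non-air lungs and 14.72 and 14.74 in Snx5-/- non-air lungs. In air it read 15.20 and 15.16 in wild-type and 14.73 and 14.68 in Snx5-/- lungs. Every Snx5-/- array was low and the groups did not overlap. The log2 fold change was -0.47 in air lungs (SE 0.10, limma adjusted p = 0.0334) and -0.44 in non-air lungs (SE 0.10, limma adjusted p = 0.101), which did not pass. Averaged over both states it was -0.46 (SE 0.07, limma adjusted p = 0.00433), so the linear intensity fell by 27.2%. The other probe gave -0.53 (limma adjusted p = 0.00186), so both probes of Ager were called in the averaged comparison.

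Pdpn codes for podoplanin, a mucin-like glycoprotein of the apical membrane that is also made by lymphatic endothelium and mesothelium. Its 1 probe, on chromosome 4, read 13.92 and 14.10 in wild-type and 13.69 and 13.67 in Snx5-/- lungs without air, and 14.09 and 14.19 in wild-type and 13.61 and 13.53 in Snx5-/- lungs with air. The air groups lay further apart than the non-air groups. The log2 fold change was -0.57 in air (SE 0.10, limma adjusted p = 0.0148) and -0.33 without air (SE 0.10, limma adjusted p = 0.234). The difference between these values, -0.24 with a 95% interval from -0.56 to 0.08, did not pass (limma adjusted p = 0.542). Averaged, Pdpn fell by 0.45 on the log2 scale (SE 0.07, limma adjusted p = 0.00599).

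Podoplanin is shared with other cells, and markers of these were not uniform. In the list of lymphatic and mesothelial genes 2 of 9 fell and 1 rose in the averaged comparison: Msln, a mesothelial surface protein, fell by 0.55 (limma adjusted p = 0.00155) and Ccl21a, a chemokine of lymphatic endothelium, fell by 0.54 (limma adjusted p = 0.00519), while Wt1, a mesothelial transcription factor, rose by 0.40 (limma adjusted p = 0.00976). The fall of Ccl21a lay in air lungs, at -1.15 (limma adjusted p = 0.000382). Without air its Snx5-/- arrays, at 12.27 and 12.30, lay between the wild-type arrays, at 12.38 and 12.02. The background for a rise was 0.882% of all genes tested, and that for a fall 1.53%. The summed linear intensity of the list was 19130 to 22120 over the Snx5-/- arrays and 22620 to 28440 over the wild-type arrays. Its part in the Pdpn result was not tested.

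Aqp5 codes for a water channel of the apical membrane of type I cells, also found in glands of the airway. Its brighter probe, on chromosome 15, read 13.38 and 13.39 in wild-type and 12.66 and 12.72 in Snx5-/- lungs without air. With air it read 13.37 and 13.38 in wild-type and 13.13 and 12.92 in Snx5-/- lungs. The wild-type arrays were alike in both states, and the Snx5-/- arrays were lowest without air. Without air the log2 fold change was -0.69 (SE 0.10, limma adjusted p = 0.0141), so the linear intensity fell by 38.0%, and in air it was -0.35 (SE 0.10, limma adjusted p = 0.126). The other probe gave -0.78 without air (limma adjusted p = 0.00706) and -0.30 with air (limma adjusted p = 0.207). Aqp5 was the gene with the most negative log2 fold change of the 8 in non-air lungs. The difference between the air states, 0.34 by the brighter probe and 0.48 by the other, did not pass (limma adjusted p = 0.394 and 0.258). Averaged, Aqp5 fell by 0.52 (SE 0.07, limma adjusted p = 0.00252).

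The 2 probes of Aqp5 differed in the air arrays. The brighter minus the other probe was 1.77 to 1.98 log2 units on the non-air arrays and 2.05 to 2.22 on the air arrays, without overlap, in both genotypes. In wild-type lungs the air effect was -0.01 by the brighter probe and -0.32 by the other, and neither passed (limma adjusted p = 0.972 and 0.190). For Ager the corresponding ranges, 0.55 to 0.67 and 0.61 to 0.75, overlapped. Why the Aqp5 probes part was not tested.

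**Figure D2:**
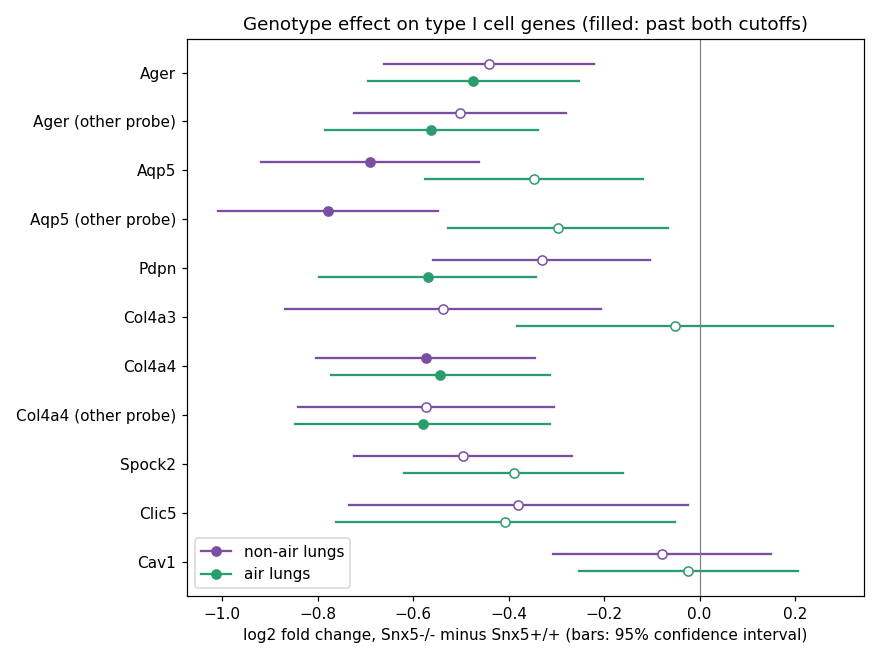
Log2 fold change of Snx5-/- against Snx5+/+ for each tested probe (points) with its 95% confidence interval from limma (bars), without air (purple) and with air (green); filled points pass both cutoffs. The points are negative for every probe, and the interval of Cav1 spans 0 in both states. Aqp5 lies lowest without air, at -0.69 and -0.78, and Col4a3 with air lies at -0.05.

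Col4a3 and Col4a4 code for the α3 and α4 chains of type IV collagen, which with α5 form the network of mature alveolar and glomerular basement membranes. They are neighbours on chromosome 1, read in opposite directions from a shared stretch, and the annotated extents of both genes overlap the window of Col4a4. The brighter Col4a4 probe read 10.57 and 10.78 in wild-type and 10.11 and 10.08 in Snx5-/- lungs without air, and 10.52 and 10.47 in wild-type and 9.97 and 9.93 in Snx5-/- lungs with air. The groups did not overlap, and Col4a4 was the only gene of the 8 called in each of the non-air (-0.57, limma adjusted p = 0.0371), air (-0.54, limma adjusted p = 0.0197) and averaged comparisons (-0.56, SE 0.07, limma adjusted p = 0.00164). The non-air call of Col4a4 held in 8 of 12 alternatives and in 1 of 8 fits with a single array left out (limma adjusted p from 0.0105 to 0.398), and the air call in 10 of 12 and 4 of 8. Averaged, the linear intensity of Col4a4 fell by 32.1%. The other probe gave -0.57, -0.58 and -0.58, of which the non-air value did not pass (limma adjusted p = 0.0735).

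Col4a3 did not split in the same way. It read 10.73 and 11.19 in wild-type and 10.48 and 10.36 in Snx5-/- lungs without air, and 10.64 and 10.45 in wild-type and 10.61 and 10.38 in Snx5-/- lungs with air. The air groups overlapped, and 1 wild-type non-air array was above all others. The log2 fold change was -0.54 without air (SE 0.15, limma adjusted p = 0.198) and -0.05 with air (SE 0.15, limma adjusted p = 0.910), and the difference of 0.49 did not pass (limma adjusted p = 0.403). Averaged, it was -0.29 with a 95% interval from -0.53 to -0.06 (limma adjusted p = 0.203).

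The non-air value of Col4a3 depended on single arrays, while its overlap in the air groups did not involve them. Without the wild-type non-air array labelled replicate 1, only the higher array of that group, at 11.19, was left. The log2 fold change of Col4a3 was then -0.77 in the non-air comparison and -0.41 in the averaged comparison. The difference between air states was then 0.72. Over all fits with a single array left out, the non-air value lay between -0.31 and -0.77. For Clic5 the non-air and averaged values without the same array were -0.62 and -0.51. In such fits a group rests on 1 array, whose spread is assumed to be that of the other groups.

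Part of the other basement membrane genes fell. Of 10 such genes tested apart from Col4a3 and Col4a4, 4 fell in the averaged comparison, against the background of 1.53%, and 9 of 10 had a negative sign, with a median of -0.30. Lamb3, a laminin-332 chain, fell by 0.49 (limma adjusted p = 0.00353), Col4a2, a chain of the common type IV collagen network, by 0.45 (limma adjusted p = 0.00809), Hspg2, or perlecan, by 0.39 (limma adjusted p = 0.0407), and Nid1, or nidogen-1, by 0.37 (limma adjusted p = 0.0293). In the non-air comparison alone 0 of 10 were called and in air 1, Lamb3, against backgrounds for a fall of 0.373% and 1.32%. The log2 fold changes of the remaining type IV collagen genes Col4a1, Col4a5 and Col4a6, named after their values were seen, were -0.17, -0.24 and 0.03, and these were not called.

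Spock2 codes for testican-2, a secreted proteoglycan of the extracellular matrix. Its probe, on chromosome 10, read 9.57 and 9.74 in wild-type and 9.09 and 9.22 in Snx5-/- lungs without air, and 9.46 and 9.52 in wild-type and 9.08 and 9.12 in Snx5-/- lungs with air. All Snx5-/- arrays were below all wild-type arrays. Neither state passed on its own (non-air -0.50, limma adjusted p = 0.0688; air -0.39, limma adjusted p = 0.0879), and the average fell by 0.44 (SE 0.07, limma adjusted p = 0.00676). Without the Snx5-/- non-air array labelled replicate 1 the average no longer passed (limma adjusted p = 0.0519).

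Clic5 codes for a chloride intracellular channel protein that binds the ezrin-based cortex. Its probe, on chromosome 17, read 10.36 and 10.83 in wild-type and 10.25 and 10.18 in Snx5-/- lungs without air, and 10.68 and 10.51 in wild-type and 10.37 and 10.01 in Snx5-/- lungs with air. The groups were apart within each air state, but 1 Snx5-/- air array, at 10.37, was above 1 wild-type non-air array, at 10.36. The averaged log2 fold change was -0.39 with a 95% interval from -0.64 to -0.14 and was not called (limma adjusted p = 0.109). Clic5 and Col4a3 had the widest standard errors of the 8 genes, 0.11 for each in the averaged comparison.

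Cav1 codes for caveolin-1, the coat protein of caveolae, which are dense in type I cells and in capillary endothelium. It read between 15.40 and 15.64 on all 8 arrays, with wild-type and Snx5-/- values mixed. The averaged log2 fold change was -0.05 with a 95% interval from -0.21 to 0.11 (limma adjusted p = 0.802), an interval that does not reach the fold cutoff. Of 6 other caveola genes tested 0 were called in the averaged comparison (limma), with log2 fold changes between -0.23 and -0.02. The background there was 1.53% of all genes tested for a fall and 0.882% for a rise. A count of 0 of 6 therefore says little about the list.

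Cav1 is shared with endothelium, whose markers were lower in part. Of 15 endothelial genes 3 fell in the averaged comparison, with a median over the list of -0.21: Plvap, a protein of endothelial diaphragms, by 0.65 (limma adjusted p = 0.000528), Car4, a carbonic anhydrase of lung capillaries, by 0.53 (limma adjusted p = 0.00334) and Eng, a TGF-β co-receptor, by 0.48 (limma adjusted p = 0.00353). Their summed linear intensity was 141600 to 157100 on the Snx5-/- arrays and 155800 to 164000 on the wild-type arrays. Its part in the type I cell results was not tested. The background for a fall in the averaged comparison was 1.53% of all genes tested.

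None of the type I cell genes passed the test between air and non-air lungs. In wild-type lungs 0 of 8 were called (limma), 1 at an unadjusted p under 0.05, against a background of 0.796% called in either direction. In Snx5-/- lungs 0 of 8 were called (limma), 1 at an unadjusted p under 0.05, against 0.701%. The median log2 fold changes were -0.05 and -0.03. By the probe that stood for each gene, Col4a3 had an unadjusted p under 0.05 in wild-type lungs, at -0.41 (limma adjusted p = 0.218). Aqp5 had one in Snx5-/- lungs, at 0.33 (limma adjusted p = 0.276). The other Aqp5 probe differed, with -0.32 in wild-type lungs (limma unadjusted p = 0.0105) and 0.16 in Snx5-/- lungs (limma unadjusted p = 0.153). For Ager the interval of the air effect in wild-type lungs ran from -0.21 to 0.23.

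The effect of genotype did not differ detectably between the air states. Of the 8 genes 0 had a called interaction (limma), against a background of 0.488%, and 2, Aqp5 and Col4a3, had an unadjusted p under 0.05. With 2 arrays a group these intervals were wide: for Aqp5 the difference ran from 0.02 to 0.67 log2 units. The air labels that differ between the deposited tables turn the sign of each of these differences.

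**Figure D3:**
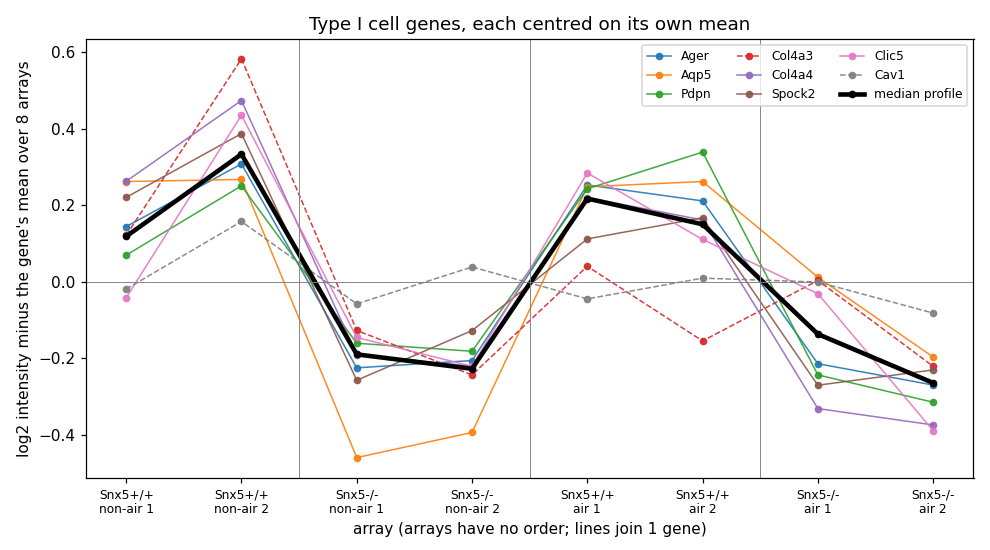
Log2 intensity of the 8 tested genes on each array, each minus the gene's own mean over 8 arrays, with their median in black. Snx5+/+ arrays lie above 0 and Snx5-/- arrays below 0 in the median. Cav1 and Col4a3 (dashed) depart most from it, and Aqp5 departs in the Snx5-/- lungs.

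Ager followed the median of the 8 genes most closely. With each gene centred on its own mean, the root mean square difference from the median profile over the 8 arrays was 0.04 for Ager, 0.09 for Spock2, Pdpn and Clic5, 0.11 for Col4a4, 0.14 for Aqp5, 0.16 for Col4a3 and 0.19 for Cav1. Each gene is part of that median. The median itself was 0.12 and 0.33 on the wild-type non-air arrays, -0.19 and -0.23 on the Snx5-/- non-air arrays, 0.22 and 0.15 on the wild-type air arrays and -0.14 and -0.26 on the Snx5-/- air arrays.

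Among 9627 other genes tested, those nearest to this profile were Cyp4b1 with a difference of 0.06, Golm1 with 0.06, Kcnk3 with 0.07, Nid2 with 0.07 and Mfge8 with 0.08, over 8 arrays. The median of the 9627 was 0.25. Cyp4b1 is a cytochrome P450 of lung epithelium, Golm1 a Golgi membrane protein, Kcnk3 a potassium channel, Nid2 a nidogen of the basement membrane and Mfge8 a secreted phosphatidylserine-binding protein. Of the 9627 genes, 1299 were nearer to the profile than Cav1.

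**Figure D4:**
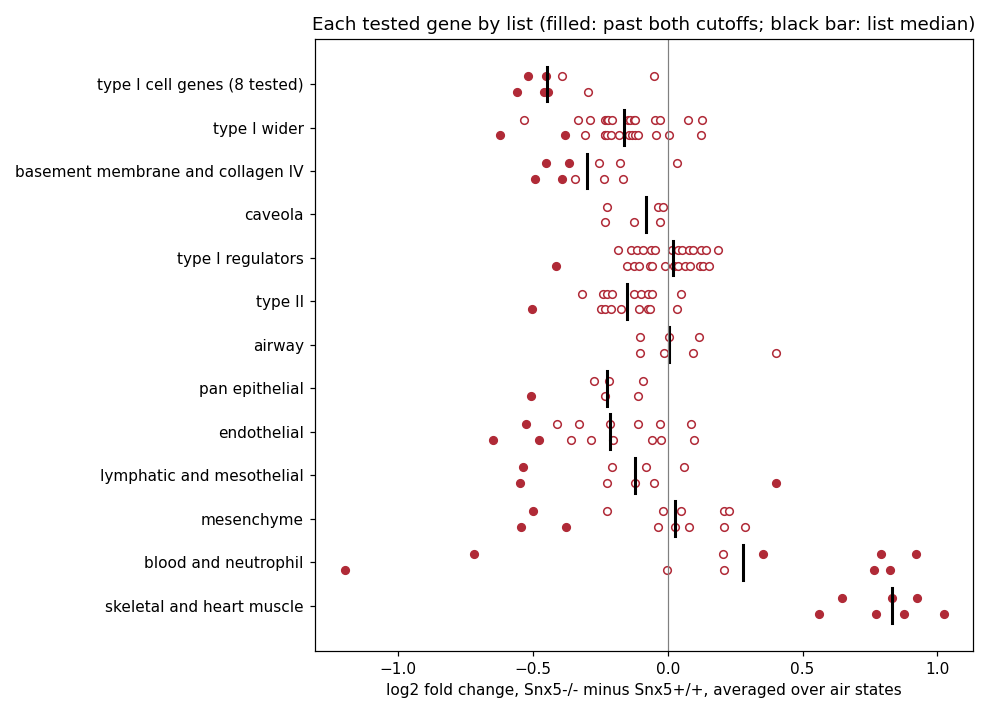
Log2 fold change of each tested gene (points) between Snx5-/- and Snx5+/+ lungs, averaged over the air states, by gene list, with filled points past both cutoffs and black bars for the medians. The 8 type I cell genes have a median of -0.45, the wider type I cell list one of -0.16 and the muscle list one of 0.83; some genes are in more than 1 list.

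Other genes that are used as type I cell markers were less uniform. Of 30 such genes tested, 2 fell in the averaged comparison, Itgb6, an integrin chain that activates TGF-β, by 0.62 (limma adjusted p = 0.000548) and Scnn1b, an epithelial sodium channel subunit, by 0.38 (limma adjusted p = 0.0149). The background for a fall was 1.53% of all genes tested. The sign was negative for 26 of 30 and the median was -0.16. In non-air and in air lungs 1 of 30 was called, Itgb6 in each, against backgrounds of 0.373% and 1.32%. The summed linear intensity of these genes was 263100 to 271800 on the Snx5-/- arrays and 287800 to 322500 on the wild-type arrays, and that of the 8 genes with Hopx and Rtkn2 left out was 93000 to 98880 and 111500 to 125200. Such sums, here and for the other lists, weigh the brightest probes most. Examples are Agrn and Anxa3 in the wider list and Cav1 and Ager among the 8 genes. How often sums of other genes split in this way was not tested.

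Partners and relatives of these genes were measured beside them. Of 9 genes that code for family members and binding partners, such as ezrin, radixin, Clic1, Clic3 and Clic6, 0 were called in the averaged comparison (limma). The background there was 1.53% of all genes tested for a fall and 0.882% for a rise. A count of 0 of 9 therefore says little about these genes. S100a8 and S100a9, calcium-binding proteins of neutrophils that bind Rage, rose by 0.79 (limma adjusted p = 0.00604) and 0.92 (limma adjusted p = 0.00124) in the averaged comparison. In the list of Rage ligands and aquaporins that holds them, S100b, Hmgb1 and Aqp9 were not above background on any array. The log2 fold changes of the other aquaporin genes Aqp1, Aqp3, Aqp4 and Aqp11, also named after their values were seen, were -0.26, 0.21, 0.23 and -0.09, and they were not called.

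Of 28 transcription factors and co-factors of the distal lung, 1 fell in the averaged comparison, Klf2, a factor of endothelium and epithelium that responds to flow and stretch, by 0.42 (limma adjusted p = 0.00966). The list median was 0.02. With a background for a fall of 1.53% of all genes tested, 1 call of 28 says little about the list. Klf2 fell by 0.74 in air lungs (limma adjusted p = 0.00276), and its log2 fold change in non-air lungs was -0.09 (limma adjusted p = 0.744). Between air and non-air lungs of the wild type, Klf2 rose by 1.05 (limma adjusted p = 0.000398) and Klf4 by 0.74 (limma adjusted p = 0.0209). In Snx5-/- lungs the air effect on Klf2 was 0.40 and was not called (limma adjusted p = 0.162), and the difference between the genotypes did not pass (-0.65, limma adjusted p = 0.116).

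Markers of other cells of the lung moved in both directions. Of 18 type II cell genes 1, Hc, complement component C5, fell in the averaged comparison, by 0.50 (limma adjusted p = 0.00249). In non-air lungs the type II genes had a negative sign in 18 of 18, with a median of -0.30, and Hc and Il33 were called, while in air lungs 8 of 18 were negative, with a median of 0.03, and 0 were called (limma). The difference between the air states was called for 0 of the 18 (limma), against a background of 0.488% called in either direction. The background for a fall was 1.53% of all genes tested in the averaged comparison, 0.373% in non-air lungs and 1.32% in air lungs. All of the 6 general epithelial genes were negative, with a median of -0.22, and Cdh16, a kidney and lung cadherin, fell by 0.51 (limma adjusted p = 0.00261). The summed linear intensity of the 6 genes was 30800 to 32400 on the Snx5-/- arrays and 35950 to 39110 on the wild-type arrays. Their part in the type I cell result was not tested.

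Blood and muscle markers moved with genotype as well. In the averaged comparison the background was 0.882% of all genes tested for a rise and 1.53% for a fall. Of 7 muscle genes tested 7 rose in the averaged comparison, but Acta1 was above background on 1 array and passed the intensity filter through the Snx5-/- air arrays alone, and Ckm was above background on 4 arrays. Among them was Tnnc1, a troponin of heart and slow muscle, at 1.02 (limma adjusted p = 0.000127), and the summed linear intensity of the list was 11110 to 14090 on the Snx5-/- arrays and 6082 to 7689 on the wild-type arrays. Of 10 blood and neutrophil genes 5 rose and 2 fell, with Slc4a1, the anion exchanger of red cells, falling by 1.20 (limma adjusted p = 1.08e-05) and Alas2, the erythroid enzyme of haem synthesis, by 0.72 (limma adjusted p = 0.000769). Of 13 mesenchymal genes 3 fell, Col1a1, Col1a2 and Eln, and the median was 0.03. Whether these markers bear on the type I cell genes was not tested.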

How the data were processed

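The values analysed are the log2 intensities that the authors deposited, quantile normalized per the methods, under their own labels. The authors also deposited non-normalized intensities on a linear scale and a detection p-value for each probe and array, made with software that no source used here names. For the non-air Snx5-/- samples 1 label field says wild type, and they were mapped by title and genotype. The platform annotation names 1 gene for 23978 probes and none for 1719. The probe with the highest mean over 8 arrays stood for a gene.

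Limma 3.58.1 in R 4.3.3 fitted 8 arrays in 4 groups, with 4 residual degrees of freedom, and probes with a group mean above a log2 intensity of 8 in the comparison were tested, with Benjamini-Hochberg adjustment over all of them. The fold cutoff of 0.3531 and the intensity cutoff are those of the methods. A gene list is described by counts and medians without a test. Named genes are the 10 genes, called genes of each list (at most 4 for each list and comparison), the 5 nearest profiles, Snx5 and sex-linked genes. The uncalled collagen IV and aquaporin genes fall outside this rule and were chosen after their values were seen. The 10 genes and the lists were chosen with earlier results of these data known. The fits were tested on simulated data for bias and false calls. Recovery of the known changes there fell short of the level first required in the non-air comparison. The number of arrays limits the precision, and 0 per-sample columns were left unused. Alternatives covered the source table, normalization, filters, variance model, replicate block, a plain t-test, averaged probes and single arrays left out. The methods combine such a t-test with a median ratio test, with p-values from permuted samples, and that combined test was not run. Leaving out both Snx5-/- air arrays was added after seeing the data.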

Additional observations from a re-analysis of the deposited data

Results flagged for a closer look

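The genotype effect on Ccl21a, the lymphatic chemokine gene named beside Pdpn, differed between the air states. Its log2 fold change was -1.15 in air lungs (limma adjusted p = 0.000382), and the interaction of genotype and air was -1.24 (limma adjusted p = 0.0064). The arrays read 12.38 and 12.02 in wild-type and 12.27 and 12.30 in Snx5-/- lungs without air, and 12.89 and 12.93 in wild-type and 11.77 and 11.74 in Snx5-/- lungs with air. The sign of the interaction turns under the air labels of the intensity table, and both Snx5-/- air arrays also differ in sex-linked genes.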

How the results depend on the processing

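The averaged genotype comparison called 5 type I cell genes under each alternative run with all arrays except the plain t-test, which is only 1 part of the methods' combined test and called 0, with Benjamini-Hochberg adjusted p between 0.0718 and 0.0923 for the 5 genes. With single arrays left out it called 4 to 7. The non-air count of 2 became 0 with neqc, 0 with only the arrays compared, 0 with the plain t-test and 1 with the replicate block, in which Col4a4 no longer passed (adjusted p = 0.0622, limma). It was 0 to 6 with single arrays left out and 1 without both Snx5-/- air arrays, a choice made after seeing the data. The air count of 3 became 0 with neqc and 0 with the plain t-test, and was 0 to 3 with single arrays left out. The air effect in wild-type lungs and the interaction had 0 to 1 called genes with single arrays left out, in both cases 1, Col4a3, without the wild-type non-air array labelled replicate 1. Under the intensity labels the non-air comparison called 3 and the air comparison 2. The replicate block moved no other count by more than 1.5 times. Deviations of same-numbered arrays from their group means had correlations from -0.23 to 0.28 between groups. With 2 arrays a group these cannot settle whether the numbers pair the arrays. No called direction reversed. The cause of these differences was not tested.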
